A study of Mus musculus with 10 samples.

Results

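The 9 cadherin genes *Cdh1*, *Cdh2*, *Cdh3*, *Cdh4*, *Cdh6*, *Cdh8*, *Cdh11*, *Cdh13* and *Cdh20* were followed in the first pharyngeal arch (PA1) of mouse embryos, chosen by gene name from the 22114 protein-coding genes counted. The arch forms the upper and lower jaws. It was dissected at E10.5 from 5 *Grhl2*+/+ (wild-type) and 5 *Grhl2*-/- male embryos on a C57BL/6 background (C57BL/6J in the study's methods), and each arch gave 1 RNA library. *Grhl2* encodes an epithelial transcription factor, and the null allele was carried by every cell of the mutant embryos and not restricted to a tissue. The arches were sequenced whole, so surface epithelium, neural crest mesenchyme, vessels and any attached nerve tissue were measured together, and fewer cells of a type cannot be told apart from less RNA per cell.

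Classical cadherins are transmembrane proteins that bind cadherins on the neighbouring cell through their outer domains in the presence of calcium. Inside the cell they bind beta-catenin and p120-catenin, and through alpha-catenin they reach the actin cytoskeleton. Epithelia typically carry E-cadherin (*Cdh1*) and often P-cadherin (*Cdh3*), whereas neural tissue and many mesenchymal cells carry N-cadherin (*Cdh2*), and the exchange of E-cadherin for N-cadherin is a textbook feature of epithelial-mesenchymal transition (EMT). Of the 9 genes, *Cdh1*, *Cdh2*, *Cdh3* and *Cdh4* encode type I cadherins and *Cdh6*, *Cdh8*, *Cdh11* and *Cdh20* type II cadherins. *Cdh13* encodes T-cadherin, which is not a classical cadherin in structure, since it is held by a lipid anchor and has no catenin-binding tail.

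Totals were between 22188454 and 28801378 counts per arch, and 3 reads corresponded to 0.104 to 0.136 CPM (counts scaled to a common library size by the TMM method). *Grhl2* transcripts numbered 794 to 1163 reads with the wild-type genotype and 81 to 178 with the null genotype, so each library matched its label. The summed level of 9 epithelial markers was 298 to 403 CPM in wild-type and 167 to 257 CPM in *Grhl2*-/- arches, and 4 of the 9 were lower at a false discovery rate (FDR) below 0.01 in limma-voom (*Epcam*, *Cldn6*, *Cldn7* and *Esrp1*), with 8 of the 9 log2 fold changes negative. The 8 mesenchymal markers summed to 1967 to 2514 and 1839 to 2137 CPM, with 0 called by limma-voom, 4 lower at an unadjusted p below 0.05, 0 called by edgeR and 1 by DESeq2. The 7 endothelial markers summed to 280 to 323 and 309 to 375 CPM, with 0 called by limma-voom or edgeR, 3 higher at an unadjusted p below 0.05 and 2 (*Pecam1* and *Kdr*) called higher by DESeq2. The 5 primitive erythroid markers summed to 3626 to 6162 and 2854 to 3862 CPM, the 5 muscle progenitor markers to 36.5 to 46.9 and 36.4 to 62.2 CPM and the 5 macrophage markers to 19.3 to 27.3 and 14.4 to 39.7 CPM. In these 3 lists limma-voom, edgeR and DESeq2 called 0, and 3 erythroid, 1 muscle and 0 macrophage markers were lower at an unadjusted p below 0.05. Wild-type arches 1 and 2 stood apart in sensory neuron markers, whose 9 genes summed to 42.3 and 38.1 CPM there and to 246 to 901 CPM in the other 8 arches. The 5 neural tube markers summed to 20.8 to 36.6 CPM in wild-type and 40.6 to 86.7 CPM in *Grhl2*-/- arches, with every mutant arch above every wild-type arch. *Sox2* made up most of this sum in every arch, at 19.99 to 29.2 CPM in wild-type and 32.1 to 47.3 CPM in *Grhl2*-/- arches. The other neural tube markers tested overlapped between the genotypes. Of the 4 neural tube markers that could be tested, 0 were called by limma-voom or edgeR, 3 were higher at an unadjusted p below 0.05 and 1 (*Sox2*) was called by DESeq2. Of 4 placode and otic markers tested, *Eya1* was lower (137 ± 7.83 and 109.7 ± 1.58 CPM, FDR 0.00113) and *Pax8* higher, with 0 or 1 reads in each wild-type and 13 to 66 reads in the *Grhl2*-/- arches (FDR 0.00971), and the sum of the 5 listed was 226 to 239 and 192 to 221 CPM.

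Across the 14561 genes tested with limma-voom, 1.96% were called at FDR below 0.01, made up of 1.09% lower and 0.879% higher in *Grhl2*-/- PA1. A gene with an unadjusted p of 0.0498 had a limma-voom FDR of 0.175, so far more genes lay below 0.05 than chance gives. The share of all genes below it was not worked out, so list counts at this p have no background beside them. The called shares are those of limma-voom alone. The shares of all genes called by edgeR and DESeq2 were not worked out, so calls by these tools have no background beside them. All 9 cadherin genes passed the filter of 10 counts in at least 1 arch. Of these, *Cdh1* was lower, *Cdh2* was higher and 7 were not called. The *Grhl2*-/- and wild-type arches did not overlap for *Cdh1*, *Cdh2* and *Cdh11*, which is 3 of 9 genes against 8.88% of all genes tested (4.66% with *Grhl2*-/- below and 4.22% above).

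**Figure D1:**
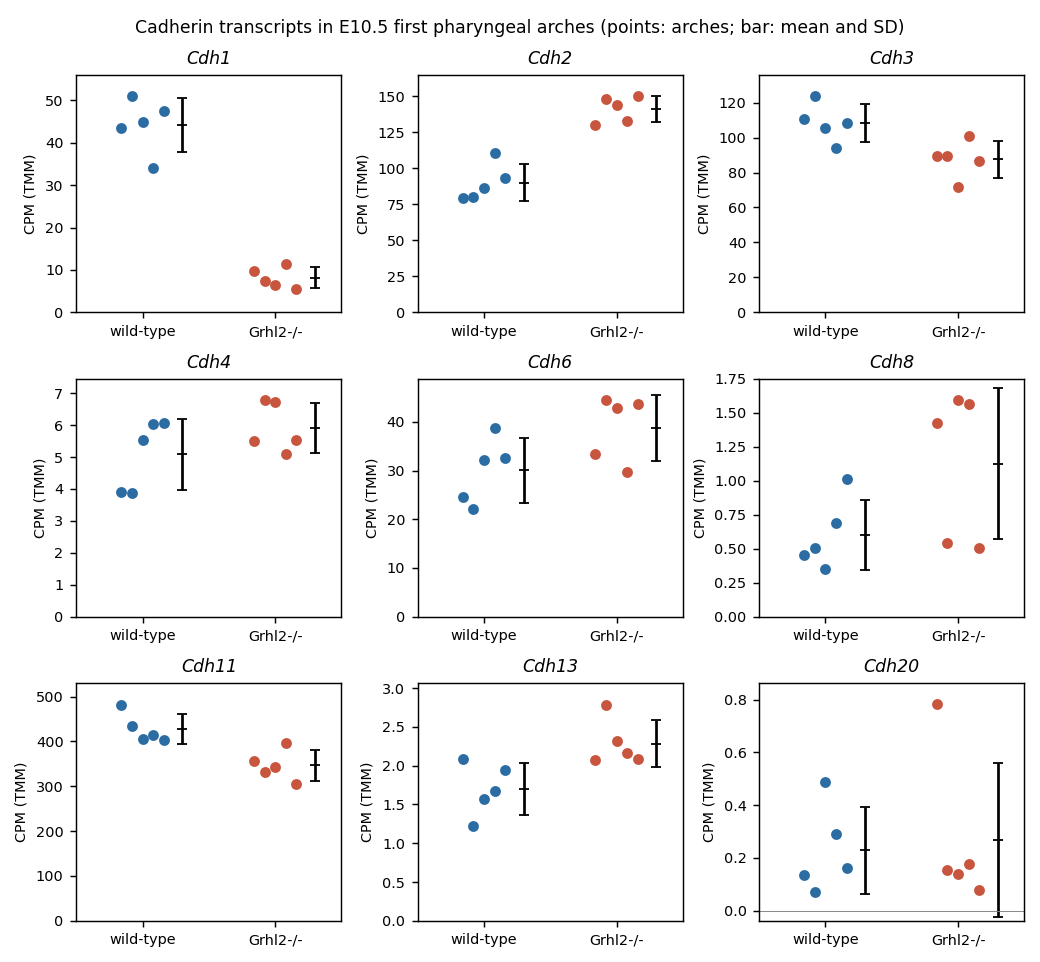
TMM-normalised CPM of the 9 cadherin genes on linear axes, with 1 point per arch (blue, wild-type; red, *Grhl2*-/-) and the mean and SD of 5 arches beside them. *Cdh1* lies between 34.1 and 51.0 CPM in wild-type and between 5.48 and 11.5 CPM in *Grhl2*-/- arches, and *Cdh2* between 79.3 and 110.6 and between 129.7 and 150.0 CPM.

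*Cdh1* encodes E-cadherin, the main adhesion receptor of epithelial adherens junctions, and occupies positions 106603351 to 106670246 of chromosome 8 (GRCm38, plus strand). Its level was 43.5, 51.0, 44.8, 34.1 and 47.5 CPM in wild-type arches 1 to 5. In *Grhl2*-/- arches 1 to 5 it was 9.81, 7.48, 6.54, 11.5 and 5.48 CPM. The highest mutant arch was thus far below the lowest wild-type arch, and even the lowest mutant arch held 142 reads of *Cdh1*. Expression was 5.52-fold lower, and the log2 fold change was -2.47 (SE 0.184, 95% confidence interval -2.87 to -2.06, limma-voom FDR 1.66e-05). Without wild-type arches 1 and 2 it was -2.41 (FDR 0.000211, an alternative chosen after the data were seen). The epithelial marker sum was also lower in every mutant arch, with log2 fold changes from -2.51 for *Epcam* to 0.02 for *Krt19*. The 5 markers not called were *Cldn3* (-0.91, limma-voom FDR 0.0127, called lower by DESeq2), the keratin genes *Krt8* (-0.40), *Krt18* (-0.07) and *Krt19*, and *Trp63* (-0.24). The part of the amount of epithelium in the *Cdh1* result was not tested.

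*Cdh3* encodes P-cadherin, which is also found in surface epithelia, and is the nearest to *Cdh1* of the 9 genes. It occupies positions 106510891 to 106557297 on the same strand of chromosome 8, and 46053 bases separate its end from the start of *Cdh1*. The wild-type values of *Cdh3* were 110.6, 123.7, 105.5, 93.8 and 108.6 CPM. The *Grhl2*-/- values were 89.6, 89.5, 71.5, 101.0 and 86.6 CPM. The groups overlapped, because mutant arch 4 lay above wild-type arch 4. *Cdh3* had a log2 fold change of -0.31 (95% confidence interval -0.51 to -0.11), and its FDR of 0.0577 in limma-voom did not pass the threshold.

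The ratio of these neighbouring epithelial cadherins was described within each library, with no test. For each count of *Cdh3*, wild-type libraries held 0.364 to 0.437 counts of *Cdh1* and *Grhl2*-/- libraries held 0.0633 to 0.114. The mean log2 ratio was -1.30 ± 0.104 in wild-type and -3.47 ± 0.341 in *Grhl2*-/- arches (SD, n = 5 each), a difference of -2.17. The groups of *Cdh1* are so far apart that this ratio had to separate them, and it was chosen after the data were seen. *Cdh1* was set in the same way against *Epcam*, which encodes an epithelial adhesion molecule unrelated to cadherins. The *Cdh1* to *Epcam* log2 ratio ran from -0.52 to -0.04 in wild-type and from -0.45 to -0.09 in *Grhl2*-/- arches, so the groups overlapped. *Epcam* was chosen after its values were seen and had itself a log2 fold change close to that of *Cdh1*, which fixed this overlap. The *Cdh3* to *Epcam* log2 ratio had means of 1.01 in wild-type and 3.21 in *Grhl2*-/- arches, with every mutant arch above every wild-type arch. The groups of *Epcam* are so far apart that this ratio also had to separate them. Such ratios within a library do not depend on how the libraries were scaled.

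*Cdh2* encodes N-cadherin, which is carried by neural crest derivatives, neuroepithelium and neurons, and occupies positions 16588877 to 16809246 of chromosome 18 (minus strand). Its level was 79.3, 80.0, 86.1, 110.6 and 93.4 CPM in wild-type arches 1 to 5. In *Grhl2*-/- arches 1 to 5 its level was 129.7, 147.7, 143.7, 133.0 and 150.0 CPM. All mutant arches lay above all wild-type arches, and the wild-type arches were the more variable group, with a coefficient of variation of 14.3% against 6.39%. Expression was 1.57-fold higher, and the log2 fold change was 0.65 (SE 0.0847, 95% confidence interval 0.47 to 0.84, limma-voom FDR 0.00111). With the label number, which the labels do not explain, as a replicate block, it was 0.61 and the call was lost (FDR 0.0222). *Grhl2*-/- arches 2 and 5 share their label numbers with no other arch, so they did not inform the genotype term of that fit. Their *Cdh2* levels, 147.7 and 150.0 CPM, were the highest of all arches.

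The 2 lowest *Cdh2* levels were in wild-type arches 1 and 2, which also had the lowest sensory neuron marker sums. Without these arches the log2 fold change of *Cdh2* was 0.53 (FDR 0.00832), and adding the mean sensory neuron marker level to the model also gave 0.53 (FDR 0.000692). The neural tube marker sum, most of it *Sox2*, was higher in every mutant arch, as *Cdh2* was, and highest in *Grhl2*-/- arch 1. Without that arch the log2 fold change of *Cdh2* was 0.68 (FDR 0.00192), while the other 4 mutant arches still had higher neural tube sums than any wild-type arch. All 9 sensory neuron markers had positive log2 fold changes (median 1.90), as had the 4 neural tube markers tested (median 1.86). In the sensory neuron list limma-voom, edgeR and DESeq2 called 0, and 1 was higher at an unadjusted p below 0.05. Of the endothelial markers, 6 of 7 were also positive (median 0.12), and so were 5 of 6 glial and Schwann cell precursor markers (median 0.86). In the glial list limma-voom, edgeR and DESeq2 called 0, and 0 had an unadjusted p below 0.05. The glial markers summed to 49.0 and 46.1 CPM in wild-type arches 1 and 2 and to 77.4 to 229 CPM in the other 8. The part of the neural tube, endothelial and glial markers in the *Cdh2* result was not tested.

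Set against each other, E-cadherin and N-cadherin transcripts were further apart in every mutant arch than in any wild-type arch. This separation was fixed beforehand, because neither gene's groups overlap and the genes moved in opposite directions. Per count of *Cdh1*, wild-type arches 1 to 5 held 1.82, 1.57, 1.92, 3.24 and 1.97 counts of *Cdh2*. The *Grhl2*-/- arches held 13.2, 19.8, 22.0, 11.6 and 27.4. As a description with no test, the mean log2 ratio of *Cdh1* to *Cdh2* was -1.03 ± 0.395 in wild-type and -4.16 ± 0.517 in *Grhl2*-/- PA1 (SD, n = 5 each), which differ by -3.13. The fitted log2 fold change of *Cdh1* (-2.47) was the larger part of that distance and that of *Cdh2* (0.65) the smaller. N-cadherin counts already exceeded E-cadherin counts in each wild-type arch, though these raw counts are not corrected for the greater length of the *Cdh2* transcript.

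**Figure D2:**
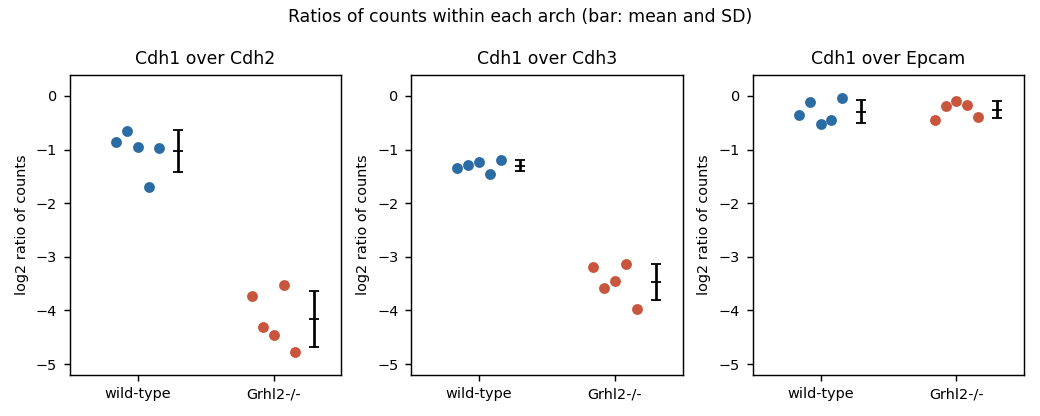
Log2 ratios of counts within each arch (points) with the mean and SD of 5 arches, for *Cdh1* over *Cdh2*, *Cdh1* over *Cdh3* and *Cdh1* over *Epcam*. The first 2 ratios separate the genotypes with no overlap (means -1.03 and -4.16, and -1.30 and -3.47), whereas the *Cdh1* to *Epcam* ratio overlaps. The levels of the single genes fixed both outcomes.

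*Cdh11* encodes OB-cadherin, a type II cadherin of mesenchyme and bone-forming cells, and was the most abundant of the 9. It occupies positions 102632095 to 102785642 of chromosome 8 (minus strand). Wild-type arches 1 to 5 were at 482, 435, 404, 414 and 402 CPM. The *Grhl2*-/- arches were at 356, 332, 342, 397 and 304 CPM. The groups did not overlap, although mutant arch 4 came close to the lowest wild-type arch. The log2 fold change was -0.30 (95% confidence interval -0.46 to -0.15) with an FDR of 0.0272 in limma-voom, above the threshold, and DESeq2 gave -0.31 with FDR 0.00101. Without wild-type arches 1 and 2 it was -0.25 (FDR 0.144). All 8 arch mesenchyme markers also had negative log2 fold changes (median -0.24), as had all 5 primitive erythroid markers (median -0.33). The part of either list in the *Cdh11* values was not tested.

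*Cdh11* and *Cdh2* are both cadherins of mesenchymal cells, and their values went opposite ways. Per count of *Cdh2*, wild-type libraries held 3.75 to 6.08 counts of *Cdh11* and *Grhl2*-/- libraries 2.03 to 2.98. The mean log2 ratio differed by -0.96, which is given with no test because neither gene's groups overlap and the pair was chosen after the data were seen.

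*Cdh6* encodes K-cadherin, a type II cadherin known from neural crest cells and the developing kidney, and lies on chromosome 15 from 13028701 to 13173675. It was at 24.6, 22.0, 32.2, 38.8 and 32.5 CPM in wild-type and at 33.5, 44.4, 42.8, 29.7 and 43.7 CPM in *Grhl2*-/- arches 1 to 5. The groups overlapped, and the lowest values were those of wild-type arches 1 and 2. The log2 fold change was 0.37 (95% confidence interval 0.02 to 0.73, limma-voom FDR 0.156). It was 0.14 (FDR 0.629) without those arches. With sensory neuron level in the model it was 0.12 (FDR 0.480).

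*Cdh4* encodes R-cadherin, a type I cadherin known from the developing retina and brain, and lies on chromosome 2 from 179442431 to 179899373. Its wild-type levels were 3.91, 3.88, 5.54, 6.03 and 6.06 CPM, against 5.49, 6.78, 6.71, 5.09 and 5.52 CPM in the *Grhl2*-/- arches. Again wild-type arches 1 and 2 were the 2 lowest of the 10. The log2 fold change of 0.23 (95% confidence interval -0.11 to 0.56, limma-voom FDR 0.343) was -0.011 (FDR 0.976) without them, and -0.00084 (FDR 0.999) with sensory neuron level in the model.

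**Figure D3:**
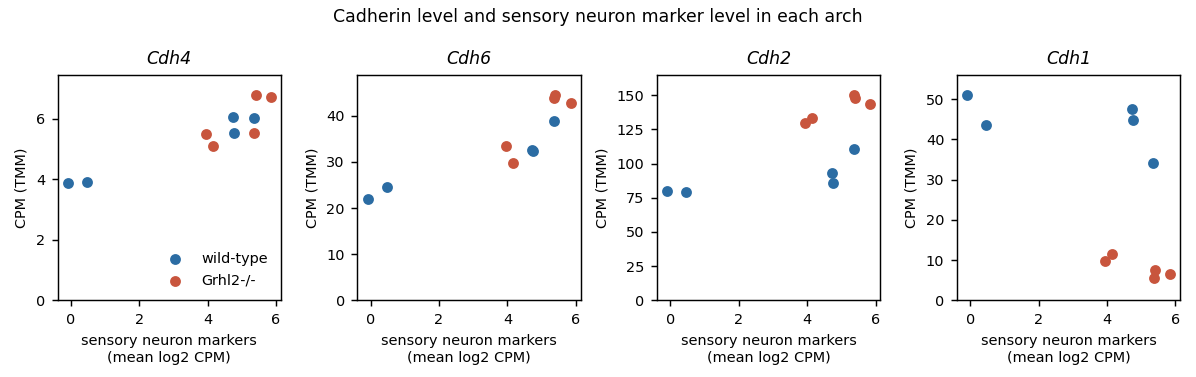
CPM of *Cdh4*, *Cdh6*, *Cdh2* and *Cdh1* in each arch (blue, wild-type; red, *Grhl2*-/-) against the mean log2 CPM of 9 sensory neuron markers. Wild-type arches 1 and 2, at 0.467 and -0.0911 on the marker axis, hold the 2 lowest levels of *Cdh4* and *Cdh6*, while the genotypes do not overlap in *Cdh1* or *Cdh2*.

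*Cdh13*, *Cdh8* and *Cdh20* were scarce. *Cdh13*, the T-cadherin gene, spans positions 118283733 to 119324921 of chromosome 8 and had 34 to 48 reads in wild-type and 54 to 72 reads in *Grhl2*-/- arches. In CPM, the wild-type arches were at 2.09, 1.22, 1.57, 1.67 and 1.94 and the mutant arches at 2.07, 2.79, 2.32, 2.17 and 2.09. Only wild-type arch 1 reached into the mutant range, and the log2 fold change was 0.45 (95% confidence interval 0.10 to 0.81, limma-voom FDR 0.102).

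*Cdh8*, which encodes a type II cadherin of the developing brain, lies on chromosome 8 from 99024471 to 99416471 and had 10 to 25 reads in wild-type arches. The *Grhl2*-/- arches had 40, 14, 46, 44 and 13 reads, so that mutant arches 1, 3 and 4 lay above all wild-type arches and mutant arches 2 and 5 among them. The log2 fold change was 0.84 with a wide interval (-0.09 to 1.77, limma-voom FDR 0.218), and 1.42 with the replicate block (FDR 0.0356). Mutant arches 2 and 5 did not inform the genotype term with this block, because no other arch shares their label numbers. Exons of *Cdh8* overlap those of *Gm15679* on the opposite strand, and the sources used here do not state in words whether counting used the strand, although the libraries were made with a stranded kit.

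*Cdh20*, also a type II cadherin gene, lies on chromosome 1 from 104768529 to 104995481. Wild-type arches had 3, 2, 14, 8 and 4 reads of it and the *Grhl2*-/- arches 22, 4, 4, 5 and 2. Several libraries were at or near the 3 reads taken as the detection floor. The log2 fold change had an interval of -1.33 to 1.33, so changes of either sign within it could not be detected with these counts and this spread between arches.

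Per kilobase of annotated exon, which allows different genes to be compared, the order of levels in wild-type PA1 ran from *Cdh11* (48.0 ± 3.73 CPM per kilobase, SD, n = 5) through *Cdh3* (24.7 ± 2.45) and *Cdh2* (11.1 ± 1.60) to *Cdh1* (9.66 ± 1.38). *Cdh6* followed at 3.33 ± 0.745 and *Cdh4* at 0.701 ± 0.152. *Cdh13*, *Cdh8* and *Cdh20* were at 0.151, 0.0777 and 0.0573. *Cdh2* and *Cdh1* were neighbours whose ranges overlapped in wild-type arches, as were *Cdh13* and *Cdh8*, and *Cdh8* and *Cdh20*. In *Grhl2*-/- PA1 the order was *Cdh11* (38.9 ± 3.82), *Cdh3* (19.996 ± 2.41), *Cdh2* (17.5 ± 1.12), *Cdh6* (4.30 ± 0.751) and then *Cdh1* (1.78 ± 0.536). *Cdh2* thus came to overlap *Cdh3*, and *Cdh1* fell below *Cdh6*.

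As a share of the summed counts per kilobase of the 9 genes, *Cdh1* went from 9.86% ± 1.27 in wild-type to 2.11% ± 0.530 in *Grhl2*-/- PA1 (SD, n = 5 each). *Cdh2* went from 11.4% ± 1.98 to 20.9% ± 2.19. The remaining large shares were 49.0% and 46.4% for *Cdh11* and 25.2% and 23.9% for *Cdh3*, and overlapped between the genotypes. *Cdh6* took 3.43% ± 0.877 and 5.19% ± 1.10. The sum itself was 97.9 ± 3.70 CPM per kilobase in wild-type and 83.7 ± 4.57 in *Grhl2*-/- PA1, and the groups did not overlap in it (lowest wild-type 94.5, highest mutant 91.0). These shares are descriptions with no test, and exon lengths were taken over all annotated isoforms, which can understate genes with many of them.

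**Figure D4:**
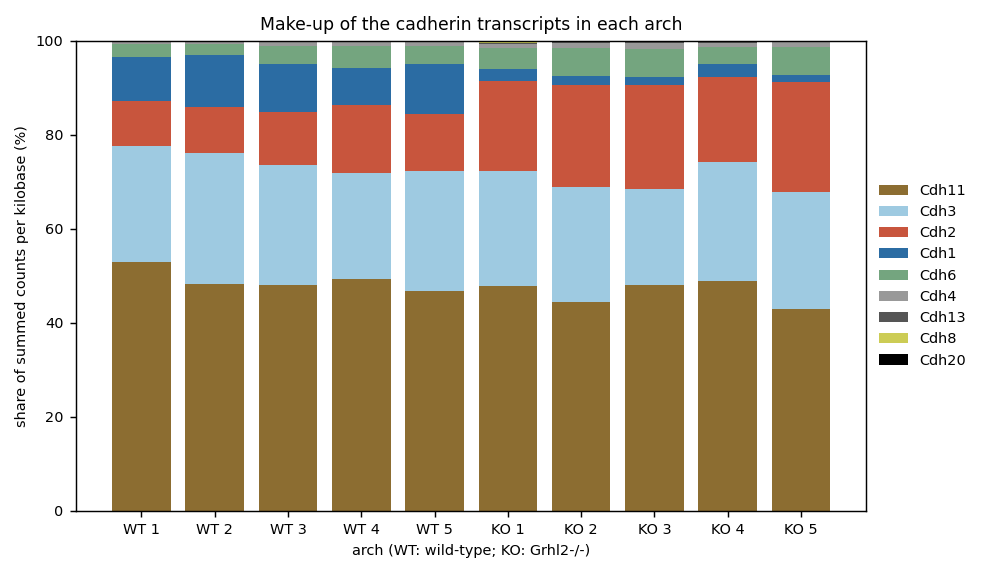
Share of each cadherin gene in the summed counts per kilobase of exon of the 9 genes, 1 stacked bar per arch (WT, wild-type; KO, *Grhl2*-/-). *Cdh1* shrinks from a mean of 9.86% to 2.11% and *Cdh2* widens from 11.4% to 20.9%, while *Cdh11* takes 49.0% and 46.4%.

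The other cadherin genes of the same kinds gave no call. Of 13 listed, 8 passed the filter, and limma-voom, edgeR and DESeq2 each called 0. At an unadjusted p below 0.05 in limma-voom, 1 was lower and 3 were higher. The median log2 fold change of the 8 was 0.21, against 0.01 over all genes tested. *Cdh5*, which encodes the VE-cadherin of endothelial junctions, was at 87.1 ± 4.02 and 93.7 ± 2.44 CPM (SD, n = 5 each, limma-voom FDR 0.113). *Cdh24* was at 33.4 ± 4.06 and 26.5 ± 3.63 CPM (limma-voom FDR 0.0839, n = 5 each).

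**Figure D5:**
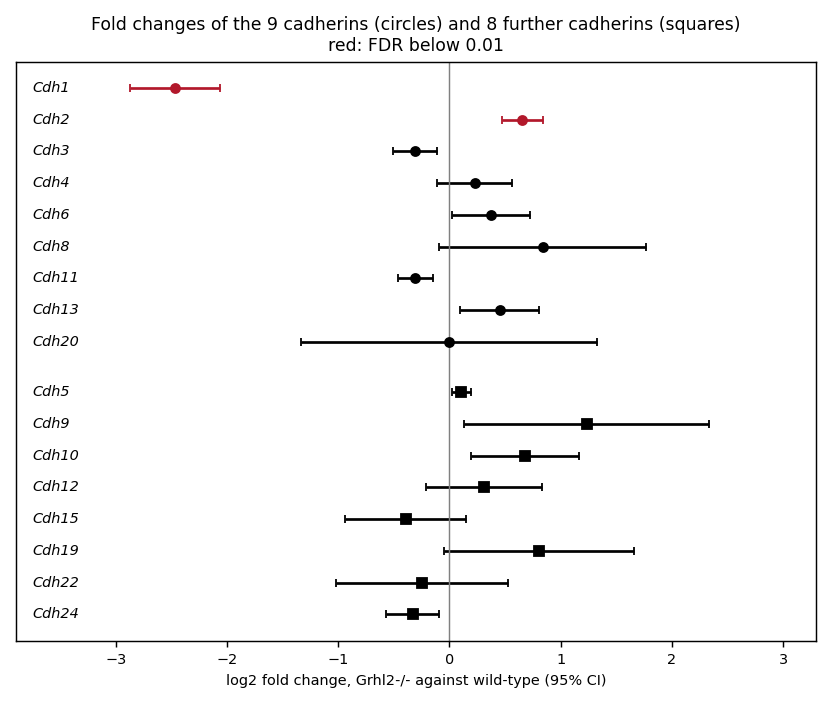
Log2 fold changes of *Grhl2*-/- against wild-type PA1 with 95% confidence intervals from limma-voom, for the 9 cadherin genes (circles) and 8 further cadherin genes (squares), with red for FDR below 0.01. *Cdh1* (-2.47) and *Cdh2* (0.65) are the genes in red, and *Cdh20* has an interval from -1.33 to 1.33.

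Among the partners of cadherins at the junction, 1 gene was called. Of 12 catenin and nectin genes tested, 1 was lower and 11 were not called (median log2 fold change 0.02). At an unadjusted p below 0.05 in limma-voom, 2 were lower, with the called gene among them, and 2 were higher. *Ctnnb1*, encoding the beta-catenin that binds the cadherin tail, was at 1811 ± 43.0 and 1772 ± 63.6 CPM, with a log2 fold change of -0.03 (limma-voom FDR 0.550). *Ctnna1*, encoding the alpha-catenin of epithelial and many other cells, was at 469 ± 14.1 and 442 ± 10.4 CPM (limma-voom FDR 0.115). The gene called was *Pvrl4*, which encodes nectin-4, an immunoglobulin-like adhesion molecule of epithelial adherens junctions. *Pvrl4* had 116, 72, 108, 106 and 100 reads in wild-type and 7, 5, 27, 25 and 7 reads in *Grhl2*-/- arches, with a log2 fold change of -3.12 (limma-voom FDR 0.00115). The 3 other nectin genes, *Pvrl1*, *Pvrl2* and *Pvrl3*, had log2 fold changes of 0.15, 0.07 and 0.06 and were not called. The groups did not overlap for *Pvrl1*, with the mutant arches above, and overlapped for *Pvrl2* and *Pvrl3*.

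Among 11 genes that tie the junction to actin, limma-voom and edgeR called 0 (median log2 fold change 0.03), 2 were lower and 1 higher at an unadjusted p below 0.05, and DESeq2 called 1 higher. That gene, *Shroom3*, whose protein drives apical constriction of epithelial cells, was at 53.7 ± 4.04 and 73.2 ± 10.2 CPM (limma-voom FDR 0.0200), and its groups did not overlap. *Enah* was at 513 ± 8.79 and 520 ± 30.7 CPM and *Actn1* at 196 ± 14.6 and 199 ± 8.41 CPM (SD, n = 5 each). Of 12 genes for cadherin processing and turnover, limma-voom, edgeR and DESeq2 called 0 and 1 was lower at an unadjusted p below 0.05 (median log2 fold change 0.05). This list includes *Adam10*, whose protease sheds the outer part of E- and N-cadherin (log2 fold change 0.08), and *Cbll1*, whose ubiquitin ligase targets E-cadherin (-0.06). The most abundant genes of the list were *Arf6* at 236 ± 12.3 and 212 ± 12.1 CPM and *Pip5k1c* at 126 ± 2.77 and 119.6 ± 4.99 CPM.

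Regulators were listed either as activators of epithelial cadherin transcription together with other epithelial factors, or as repressors of E-cadherin transcription. Of 13 activators and epithelial factors, 7 were lower and 0 higher at an unadjusted p below 0.05 in limma-voom. At FDR below 0.01, 4 were called lower and 9 were not called (median log2 fold change -0.30). Besides the targeted *Grhl2*, these were *Ovol1* and *Ovol2*, which encode zinc finger repressors that protect epithelial identity, and *Tfap2c*, which encodes an AP-2 factor of surface ectoderm. *Tfap2c* was at 23.9, 18.8, 16.1, 19.6 and 18.2 CPM in wild-type arches and at 8.06, 11.6, 10.4, 8.75 and 9.46 CPM in *Grhl2*-/- arches. Its groups did not overlap, and its log2 fold change was -0.99 (limma-voom FDR 0.000791). *Ovol1* and *Ovol2* were rare transcripts, with 15 to 28 and 22 to 33 reads in wild-type and at most 5 reads in any *Grhl2*-/- arch. *Trp63*, encoding the p63 of stratified epithelia, was at 73.1 ± 5.78 and 61.9 ± 5.31 CPM (limma-voom FDR 0.0566), and *Tfap2a* at 11.7 ± 1.42 and 13.3 ± 2.76 CPM (FDR 0.510).

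Of 11 repressors of E-cadherin transcription, limma-voom and edgeR called 0 in either direction (median log2 fold change -0.06), and 2 were lower and 2 higher at an unadjusted p below 0.05. DESeq2 called *Twist1*, a mesenchymal bHLH factor, lower (188 ± 22.7 and 148 ± 6.75 CPM, limma-voom FDR 0.0189). The log2 fold changes spanned -0.34 for *Twist1* to 0.59 for *Zeb2*. The 2 higher at an unadjusted p below 0.05 were *Zeb1* (0.25, limma-voom FDR 0.0637) and *Zeb2* (limma-voom FDR 0.124). The 2 lower were *Twist1* and *Twist2* (-0.29, limma-voom FDR 0.0643). In whole arches these values do not separate epithelium from mesenchyme. The most abundant, *Tcf3* and *Tcf4*, which encode E-proteins, were at 388 ± 16.2 and 370 ± 13.1 CPM and at 284 ± 24.9 and 273 ± 31.4 CPM.

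Genes whose levels ran most like those of the cadherins over the 10 arches were ranked by the root mean square difference of standardised log2 CPM among 10733 genes with a mean of at least 5 CPM. This measure includes the difference between the genotypes. For *Cdh1* the nearest were *Ap1m2* (0.121), *Epcam* (0.122), *St14* (0.126) and *Mpzl2* (0.130). For *Cdh2* they were *Hey1* (0.208), *Slc8a2* (0.218), *Agpat3* (0.220) and *Gdnf* (0.230). The profiles nearest to *Cdh11* were more distant, with *Tmem59l* at 0.263, *Spin2c* at 0.322, *1700027J19Rik* at 0.347 and *Sfn* at 0.352.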

How the data were processed

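The authors aligned reads of 10 PA1 libraries (stranded total RNA, ribosomal RNA depleted) to GRCm38 with STAR, counted them with featureCounts and deposited raw read counts for 22114 protein-coding genes. The submitters' processing notes name edgeR 3.18.1 and limma 3.32.7. A second deposited table, which holds the authors' own fold changes and adjusted p-values beside the same kind of counts, was not used. All 10 columns of counts were matched to samples by title. The labels do not say which embryos were littermates, and the study's methods state that controls came from the same litter where this could be done.

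The 14561 genes that reached 10 counts in any arch were normalised by TMM and tested with limma-voom (limma 3.58.1, edgeR 4.0.16, R 4.3.3), with genotype as the only term, Benjamini-Hochberg adjustment over all genes tested and calls at FDR below 0.01, as in the study. CPM are TMM-normalised. A prior count of 0.5 was added for log2 CPM. Coordinates and exon lengths came from GENCODE M21. Named genes were the 9 cadherins, list genes that were called, up to 2 most abundant uncalled genes per list, and the 4 nearest profiles of *Cdh1*, *Cdh2* and *Cdh11*. *Twist1*, *Zeb2*, *Shroom3*, *Sox2*, *Pecam1*, *Kdr*, *Cldn3*, *Krt8*, *Krt18*, *Krt19*, *Pvrl1*, *Pvrl2*, *Pvrl3*, *Adam10* and *Cbll1*, and the uncalled genes among the other observations, were named after their values were seen. *Zeb1* and *Twist2* were also named after their values were seen. Members, lists and tests were chosen with earlier results of these data known. The fit was tested on simulated data. As alternatives, DESeq2 1.42.0 and the quasi-likelihood test of edgeR were run, together with 2 scalings, 2 filters, quality weights, a replicate block, a sensory neuron covariate, an FDR of 0.05 and leaving out each arch.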

Additional observations from a re-analysis of the deposited data

Results flagged for a closer look

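In 40 groups of 5 arches (each cadherin, the *Cdh1* to *Cdh2* ratio and each marker sum, by genotype), 2 had an extreme arch by Dixon's test (gap divided by range above 0.71, the 95% value), and chance gives about 2. *Cdh20* was at 0.785 CPM in *Grhl2*-/- arch 1 (22 reads) and at 0.178 CPM in the next arch. The summed neural tube markers were at 86.7 CPM in the same arch against 49.1 CPM in the next, with *Pax6* at 1046 reads there and at 81 to 307 reads in the other *Grhl2*-/- arches.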

How the results depend on the processing

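*Cdh1* was called lower in all 10 fits that left out 1 arch (log2 fold changes -2.60 to -2.35) and in all 10 others (-2.49 to -2.26), and *Cdh2* was called higher in each that left out 1 arch (0.61 to 0.73) and in 9 of 10 others. The label number after the hyphen of each title is shared by some arches of both genotypes, but the labels do not say what it stands for. With this number as a replicate block, *Cdh2* was at 0.61 (log2, FDR 0.0222), *Cdh8* at 1.42 (FDR 0.0356) and 0 cadherins were called higher. *Grhl2*-/- arches 2 and 5, whose numbers no other arch shares, did not inform the genotype term of this fit. Same-numbered pairs had a mean correlation of deviations of 0.105 (3 of 5 above 0.1) and other pairs of -0.025. A partner of the same number was the best correlated for 2 of 5 wild-type arches and for 2 of the 3 mutant arches with a shared number. Since not every pair exceeded 0.1 the block was kept as an alternative, and whether the number marks a litter was not tested. DESeq2 (*Cdh11* at -0.31, FDR 0.00101) and an FDR threshold of 0.05 each gave 2 lower cadherins in place of 1. The sign of *Cdh20* turned with DESeq2 (0.20), edgeR (0.20), library size alone (0.017) and the block (0.31), and leaving out 1 arch gave -0.50 to 0.33. *Cdh4* turned to -0.00084 with the sensory neuron covariate and to -0.011 without wild-type arches 1 and 2. *Cdh8* and *Cdh20* had no value under a minimum of 1 CPM in 5 arches. *Cdh8* and *Cdh20* rested on 2 to 46 reads per arch and also varied widely between arches (coefficients of variation 43.2% to 109.5%).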

Other observations

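Cadherin and catenin genes known from neurons and glia, which were not called, are given here as values. *Cdh19*, a cadherin of the Schwann cell lineage, had 30 and 52 reads in wild-type arches 1 and 2 and 106 to 274 reads in the other 8 arches (log2 fold change 0.81, limma-voom FDR 0.198). *Ctnna2*, encoding the alpha-catenin of neurons, had 120 and 134 reads in these arches and 383 to 1039 reads elsewhere (log2 fold change 1.17, limma-voom FDR 0.0988). *Cdh10*, a brain cadherin gene, had a log2 fold change of 0.68 (limma-voom FDR 0.0818), with a 95% confidence interval of 0.19 to 1.17. Others of these lists were near 0 or negative, such as *Ctnnd2*, encoding a delta-catenin of neurons, with a log2 fold change of 0.01 (limma-voom FDR 0.943), and the brain cadherin gene *Cdh22* with -0.25 (limma-voom FDR 0.680).

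Both arches with label number 588, wild-type arch 3 and *Grhl2*-/- arch 1, held the most *Cdh20* of their genotype (14 and 22 reads) and also the most *Pax6* (185 and 1046 reads), the gene of a neural and eye transcription factor. The 3 *Grhl2*-/- arches with *Cdh8* at 40, 46 and 44 reads were those whose label number a wild-type arch shares, and the mutant arches with 14 and 13 reads were the other two. These patterns were noticed in the data and not tested.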
